A study of Mus musculus with 15 samples.

Results

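The genes described here are 10 genes of antigen presentation on major histocompatibility complex (MHC) class II molecules, taken by name from the 21839 genes of a count table: H2-Aa, H2-Ab1, H2-Eb1, H2-DMa, H2-DMb1, H2-Oa, Cd74, Ciita, Ctss and Ifi30. All 10 were present and all 10 passed the filter on low counts. They were followed in lymphatic endothelial cells of C57bl/6 mice aged 10 weeks, each mouse carrying a transplanted melanoma of a lymphangiogenic line. The groups are cells of the tumor (Tumor), of the lymph node that drains it (TdLN) and of a lymph node that does not (NdLN), with 5 libraries each, so that the NdLN cells also come from tumor-bearing animals. Cells were sorted as CD45-negative, CD31-positive and gp38-positive. Whether each library stands for its own animal or for pooled animals is not in the labels, and p-values therefore reflect only how much the libraries vary, which may be technical.

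MHC class II molecules are dimers of an alpha and a beta chain that show peptides of engulfed proteins to CD4 T cells. The chains are assembled on the invariant chain, the product of Cd74, which is then cut by lysosomal proteases, and the last fragment is exchanged for a peptide with the help of H2-DM. The coactivator encoded by Ciita switches on most of these genes together, constantly in dendritic and B cells and after interferon-gamma in many other cells. Lymph node lymphatic endothelium is known to carry class II molecules, partly its own and partly acquired from dendritic cells, and to present them without strong costimulation.

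The libraries held 23830337 to 34577494 counts in Tumor, 32134127 to 37043976 in TdLN and 31894931 to 37437282 in NdLN. Levels are given as CPM, counts scaled to a common library size with edgeR's TMM factors, and were also divided by transcript length where genes are compared with each other. Summed over 9 marker genes of lymphatic endothelium, Tumor libraries held 3514 to 4990 CPM, TdLN libraries 6694 to 8157 CPM and NdLN libraries 7700 to 10080 CPM, and none of the 9 was at 0 in a whole group. The sum joined genes that differed in opposite directions. In Tumor, TdLN and NdLN, Ccl21a averaged 1227, 135.5 and 104.9 CPM. Prox1 averaged 104.6, 538.5 and 765.9 CPM, Pecam1 275.6, 1179 and 1596 CPM, and Mmrn1 722.5, 2616 and 4002 CPM. By the test given below, 2 of the 9 rose and 5 fell in Tumor against TdLN. Of all tested genes 31.9% were higher there and 30.1% lower. Pigment cell genes (8 genes) summed to 24300 to 39840 CPM in Tumor libraries, against 9.54 to 29.1 CPM in TdLN and 15.3 to 34.6 CPM in NdLN libraries. Pigment cell transcripts were thus present in the Tumor libraries, and their part in the results was not tested. In such bulk material fewer cells of a type and less RNA per cell cannot be told apart.

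Class II chains, their editing proteins and Ciita were higher in Tumor than in TdLN libraries, the invariant chain gene was not, and the protease gene Ctss was lower. Of the 10 genes 8 rose and 1 fell in Tumor against TdLN (edgeR's quasi-likelihood test, adjusted p under 0.05 over 13887 genes), where 31.9% of all tested genes were higher and 30.1% lower, 62% in all. Against NdLN 7 rose and 1 fell, where 34% of all tested genes were higher and 32.5% lower, 66.5% in all. Libraries of the groups did not overlap for 4 genes that rose and 1 that fell against TdLN, where 24.1% of all genes lay wholly higher and 22.5% wholly lower, and for 5 and 1 against NdLN, where 27.7% lay higher and 27% lower. The median log2 fold change of the 10 genes was 2.28 against TdLN and 2.23 against NdLN, beside 0.04 for all tested genes in each comparison. Both comparisons use the same Tumor libraries. Tested against a fold of 2 in place of no change (glmTreat, log2 fold change of 1), 8 rose and 1 fell in Tumor against TdLN, with 12.5% of all genes higher and 12.8% lower, and 6 rose and 1 fell in Tumor against NdLN, with 15.1% of all genes higher and 15.1% lower.

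The chain genes come first. H2-Aa (ENSMUSG00000036594, chromosome 17, 34282744 to 34287823, minus strand, GRCm38) encodes the I-A alpha chain. Its CPM were 217, 55.3, 87.5, 142 and 458 in Tumor libraries 1 to 5, against 6.99, 7.54, 32.4, 14.9 and 19.9 in TdLN and 12.8, 19.8, 47.4, 33.4 and 37.9 in NdLN. Every Tumor library was above every node library. The log2 fold change was 3.55 ± 0.61 against TdLN (SE, adjusted p = 0.000119) and 2.67 ± 0.58 against NdLN (adjusted p = 0.000867).

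H2-Ab1 (ENSMUSG00000073421, chromosome 17, 34257689 to 34269419, plus strand) encodes the I-A beta chain that pairs with it. It stood at 264, 84.2, 123, 214 and 519 CPM in Tumor libraries, against 36.5, 41.5, 93.2, 64.6 and 82.1 CPM in TdLN and 72.4, 56.2, 129, 96.3 and 110 CPM in NdLN. Here the groups touched, since Tumor 2 lay below TdLN 3, and Tumor 2 and Tumor 3 both lay inside the NdLN range. The log2 fold change was 1.92 ± 0.43 against TdLN (adjusted p = 0.00118) and 1.38 ± 0.42 against NdLN (adjusted p = 0.00942). Against NdLN it did not pass the test against a fold of 2 (adjusted p = 0.187).

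H2-Eb1 (ENSMUSG00000060586, chromosome 17, 34305867 to 34316674, plus strand) encodes the I-E beta chain. C57BL/6 mice do not make its alpha partner, so this transcript gives no I-E dimer on the surface in this strain. It reached 105, 31.1, 49.4, 99.2 and 208 CPM in Tumor libraries, against 8.83, 7.80, 31.8, 13.2 and 21.1 CPM in TdLN and 10.4, 15.2, 35.8, 29.2 and 24.8 CPM in NdLN. Only Tumor 2 fell inside the range of either node group. H2-Eb1 rose by a log2 fold change of 2.58 ± 0.53 against TdLN (adjusted p = 0.000598) and 2.10 ± 0.52 against NdLN (adjusted p = 0.00227).

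**Figure D1:**
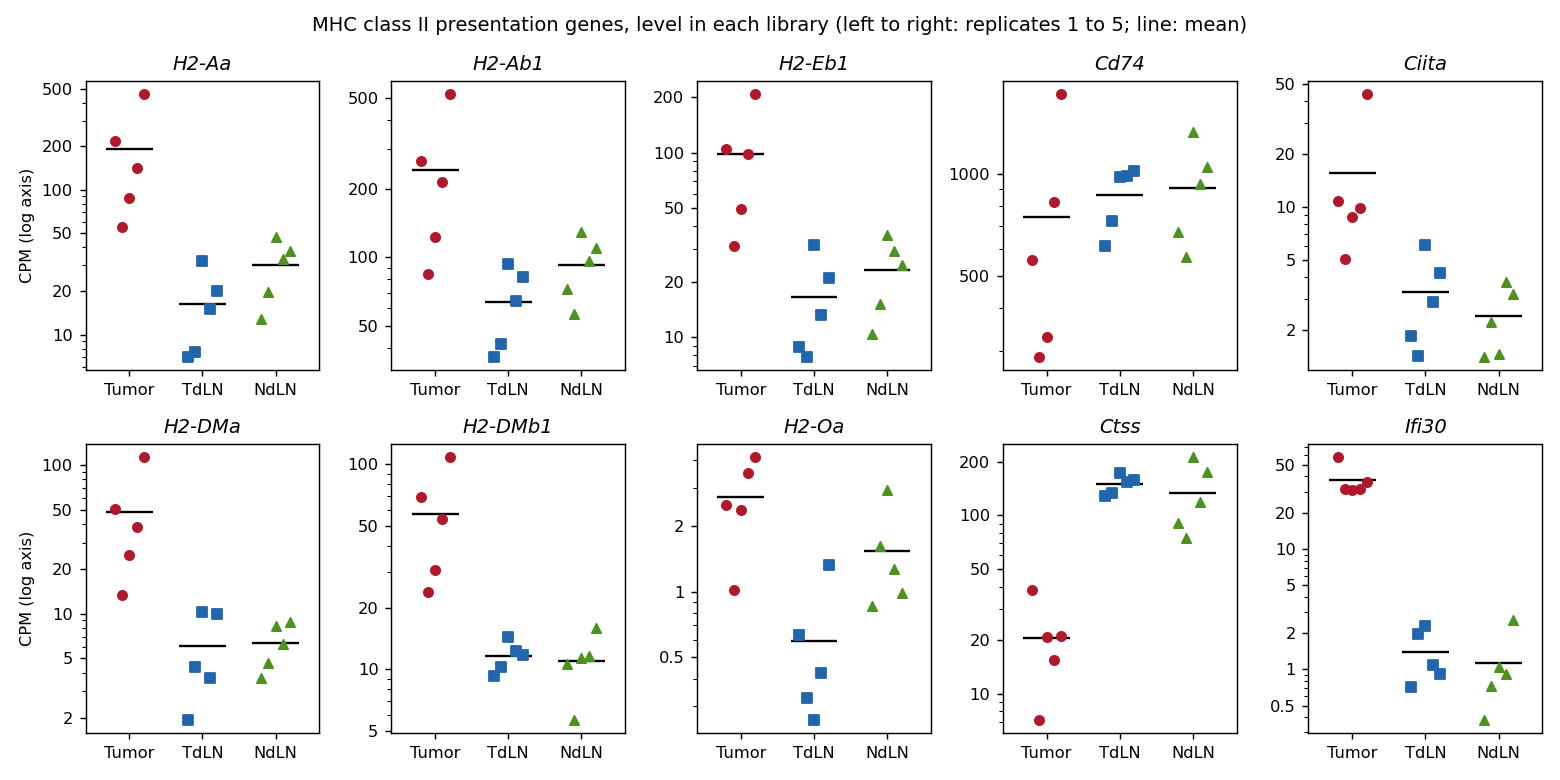
Level of each of the 10 genes in CPM (log axis) in the 5 Tumor, 5 TdLN and 5 NdLN libraries, with points for replicates 1 to 5 from left to right and a line at the group mean. H2-Aa, H2-DMa, H2-DMb1 and Ifi30 lie higher in every Tumor library than in every node library, Ctss lies lower, and Cd74 overlaps.

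Cd74 (ENSMUSG00000024610, chromosome 18, 60803848 to 60812652, plus strand) encodes the invariant chain, which fills the peptide groove of new class II dimers and steers them to lysosomes. Its CPM were 555, 287, 329, 825 and 1718 in Tumor libraries, against 612, 726, 977, 987 and 1021 in TdLN and 673, 568, 1329, 932 and 1044 in NdLN. Tumor libraries spread on both sides of the node libraries. The log2 fold change was -0.22 ± 0.40 against TdLN (adjusted p = 0.658) and -0.29 ± 0.40 against NdLN (adjusted p = 0.54), neither past the threshold. Tumor 5 weighed on these values. Without it Cd74 was lower in Tumor, with a log2 fold change of -0.80 against TdLN (adjusted p = 0.0408) and -0.87 against NdLN (adjusted p = 0.0256).

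The ratio of invariant chain to class II chain transcripts lay apart in tumor and nodes. Per kb of transcript, Cd74 was 1.81, 2.93, 2.30, 3.31 and 2.84 times the level of H2-Ab1 in Tumor libraries, against 14.4, 15.1, 9.0, 13.1 and 10.7 times in TdLN and 7.99, 8.68, 8.88, 8.32 and 8.19 times in NdLN. All Tumor ratios lay below all node ratios, Tumor 5 included, and all TdLN ratios lay above all NdLN ratios. For Cd74 over H2-Aa the ratio was 2.04 to 4.64 in Tumor, against 24.1 to 77.1 in TdLN and 22.1 to 42.2 in NdLN. The ratio of H2-Ab1 to H2-Aa, the paired beta and alpha chains, was 1.06 to 1.42 in Tumor, against 2.68 to 5.12 in TdLN and 2.53 to 5.28 in NdLN. These ratios are descriptions and were not tested.

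**Figure D2:**
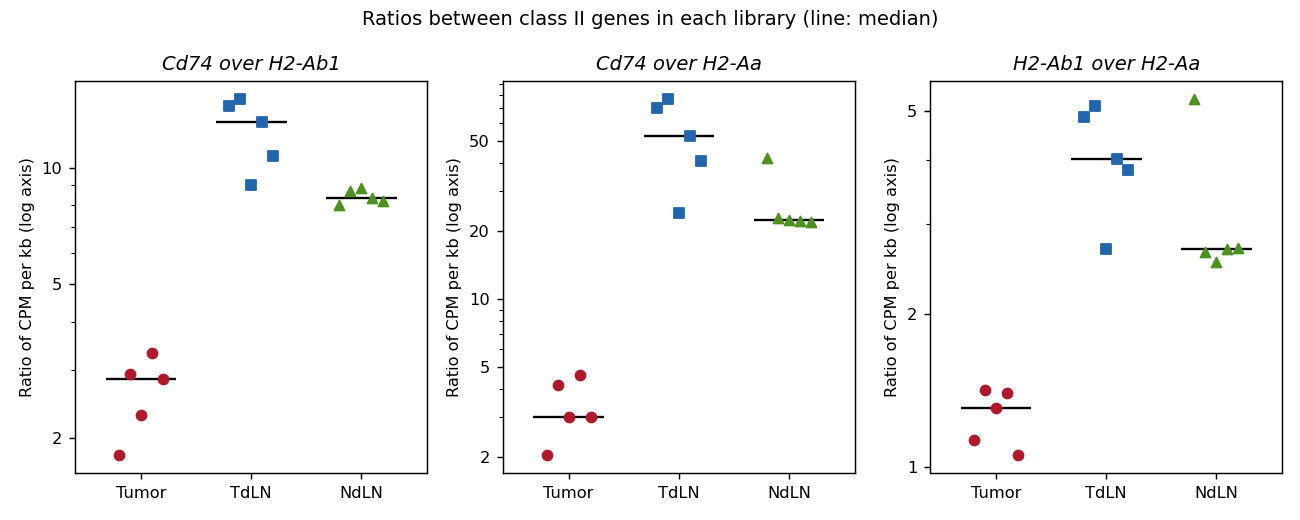
Ratios of CPM per kb between class II genes in each library (log axis), with a line at the group median. Cd74 over H2-Ab1 runs from 1.81 to 3.31 in Tumor libraries, from 9.0 to 15.1 in TdLN and from 7.99 to 8.88 in NdLN.

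Ciita (ENSMUSG00000022504, chromosome 16, 10480059 to 10528418, plus strand), the class II coactivator, was low everywhere. Its CPM were 10.8, 5.09, 8.74, 9.88 and 43.9 in Tumor libraries, against 1.85, 1.42, 6.13, 2.90 and 4.21 in TdLN and 1.4, 2.23, 1.47, 3.75 and 3.19 in NdLN. Every Tumor library was above every NdLN library, while Tumor 2 lay below TdLN 3. The log2 fold change was 2.25 ± 0.57 against TdLN (adjusted p = 0.00316) and 2.70 ± 0.59 against NdLN (adjusted p = 0.000807). Without Tumor 5 these were 1.38 (adjusted p = 0.0127) and 1.84 (adjusted p = 0.00195). Ciita overlaps exons of Dexi on the other strand over 329 bases, and reads there cannot be assigned without strand.

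H2-DMa (ENSMUSG00000037649, chromosome 17, 34119541 to 34139101, plus strand) and H2-DMb1 (ENSMUSG00000079547, chromosome 17, 34153072 to 34160230, plus strand) encode chains of H2-DM, which removes the invariant chain fragment and edits the bound peptide. H2-DMa was at 50.6, 13.3, 24.8, 38.2 and 113 CPM in Tumor libraries, against 1.93, 4.37, 10.3, 3.69 and 9.90 CPM in TdLN and 3.70, 4.64, 8.26, 6.25 and 8.83 CPM in NdLN. H2-DMb1 was at 68.9, 23.8, 30.5, 53.8 and 109 CPM in Tumor libraries, against 9.24, 10.3, 14.4, 12.3 and 11.7 CPM in TdLN and 10.6, 5.68, 11.4, 11.6 and 15.9 CPM in NdLN. For both genes every Tumor library exceeded every node library. H2-DMa rose by a log2 fold change of 2.99 ± 0.57 against TdLN (adjusted p = 0.000312) and 2.92 ± 0.57 against NdLN (adjusted p = 0.000316). H2-DMb1 rose by 2.30 ± 0.37 (adjusted p = 6.37e-05) and 2.37 ± 0.37 (adjusted p = 4.07e-05). Of the windows of 50 bases in the H2-DMb1 transcript, 27.2% also occur in its neighbour H2-DMb2, so the counting could split or drop their reads. H2-DMa shares 360 exon bases with Brd2 on the other strand.

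H2-Oa (ENSMUSG00000024334, chromosome 17, 34092340 to 34095234, plus strand) encodes the alpha chain of H2-O, an inhibitor of H2-DM known best from B cells. It was at 2.50, 1.02, 2.36, 3.51 and 4.14 CPM in Tumor libraries, against 0.64, 0.33, 0.26, 0.42 and 1.33 CPM in TdLN and 0.86, 1.62, 2.91, 1.27 and 0.99 CPM in NdLN. Tumor libraries overlapped both node groups. It rose against TdLN (2.18 ± 0.53, adjusted p = 0.00228), and its difference from NdLN (0.82 ± 0.51, adjusted p = 0.167) did not pass. The gene shares 17.2% of its windows of 50 bases with BC051537, which overlaps it on the other strand. H2-Ob, the gene of the partner chain, was low as well, at 0.31 ± 0.32 CPM in Tumor, 0.60 ± 0.35 CPM in TdLN and 2.12 ± 1.72 CPM in NdLN libraries (SD, n = 5 each), lower in Tumor than in NdLN (-2.79 ± 0.94, adjusted p = 0.016).

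Ctss (ENSMUSG00000038642, chromosome 3, 95526786 to 95556403, plus strand) encodes cathepsin S, the protease that makes the last cut of the invariant chain in antigen-presenting cells. It went the other way, at 38.2, 7.19, 20.8, 15.5 and 21.3 CPM in Tumor libraries, against 128, 133, 173, 154 and 157 CPM in TdLN and 90.1, 75.0, 212, 118 and 174 CPM in NdLN. No Tumor library reached the lowest node library. Its log2 fold change was -2.86 ± 0.38 against TdLN (adjusted p = 9.83e-06) and -2.70 ± 0.37 against NdLN (adjusted p = 1.3e-05).

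Ifi30 (ENSMUSG00000031838, chromosome 8, 70762774 to 70766663, minus strand) encodes GILT, the lysosomal thiol reductase that opens disulfide bonds of antigens. It had the highest log2 fold change of the 10 genes in both comparisons. Its CPM were 58.2, 31.5, 31.0, 31.2 and 36.2 in Tumor libraries, against 0.72, 1.98, 2.30, 1.10 and 0.92 in TdLN and 0.38, 0.72, 1.05, 0.91 and 2.57 in NdLN. The groups were far apart, with the Tumor libraries closer to each other than for any chain gene. Ifi30 rose by a log2 fold change of 4.74 ± 0.48 against TdLN (adjusted p = 6.41e-07) and 5.05 ± 0.49 against NdLN (adjusted p = 3.16e-07). It shares 85 exon bases with 6330537M06Rik, of the opposite strand, and the annotation used here lists it as a processed transcript.

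**Figure D3:**
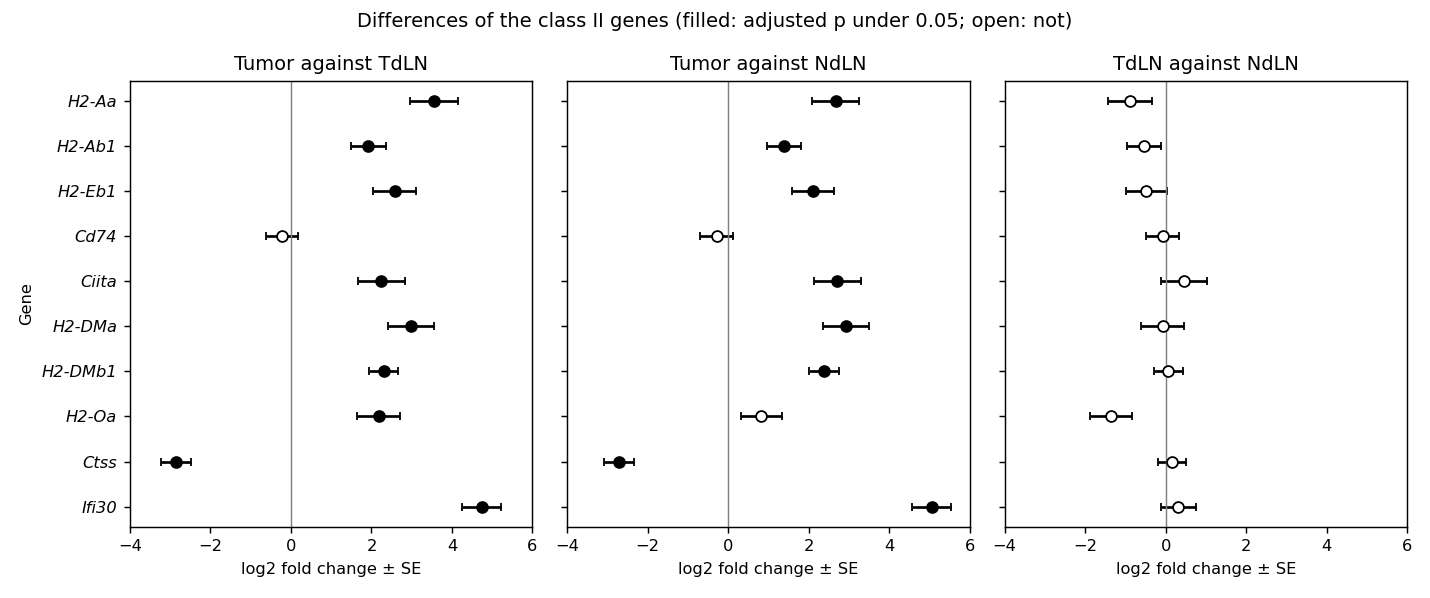
Log2 fold change with its standard error for the 10 genes in the 3 comparisons, filled where the adjusted p was under 0.05. In both Tumor panels Ifi30 lies farthest to the right and Ctss farthest to the left, while in the panel of TdLN against NdLN all 10 points are open.

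Does the draining node differ from the non-draining node in class II genes? For the level of each single gene no difference passed the test. The ratios of Cd74 to H2-Ab1 given above did not overlap between the nodes, narrowly, with 9.004 the lowest in TdLN and 8.878 the highest in NdLN. H2-Aa over H2-Eb1, given below, did not overlap either. Cd74 over H2-Aa, H2-Ab1 over H2-Aa and H2-DMb1 over H2-Ab1 did overlap between the nodes. None of these ratios was tested. In TdLN against NdLN, 0 of the 10 genes were called by edgeR's quasi-likelihood test, where 3.49% of all tested genes were called, 1.84% higher and 1.64% lower. DESeq2 and limma's voom also called 0, and 1 gene had an unadjusted p under 0.05. That gene was H2-Oa (log2 fold change -1.36 ± 0.52, unadjusted p = 0.0198, adjusted p = 0.187). The estimates for the chain genes lay below 0 and did not pass, at -0.89 ± 0.56 for H2-Aa (adjusted p = 0.444), -0.54 ± 0.42 for H2-Ab1 (adjusted p = 0.549) and -0.48 ± 0.50 for H2-Eb1 (adjusted p = 0.676). For the other 6 genes the estimates ran from -0.07 (Cd74 and H2-DMa) to 0.46 (Ciita), each with a standard error of 0.35 to 0.56. Libraries of the groups overlapped for all 10 genes, where 2.87% of all genes lay wholly higher in TdLN and 4.95% wholly lower.

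The order of levels per kb of transcript was led by Cd74 in every group, at 527 ± 415 CPM per kb in Tumor, 613 ± 130 in TdLN and 645 ± 215 in NdLN (SD, n = 5 each). Below it the order differed. In Tumor libraries H2-Ab1 (199 ± 141 CPM per kb) and H2-Aa (170 ± 142) followed, and Ctss (15.2 ± 8.38) was eighth. In TdLN libraries Ctss (110 ± 13.7) was the next after Cd74, then H2-Ab1 (52.4 ± 20.4) and H2-Aa (14.5 ± 9.29), and in NdLN libraries the same 4 genes led in the same order. In Tumor each gene overlapped the next in this order. In TdLN, Cd74, Ctss and H2-Ab1 were each clear of the next, and so was H2-DMb1 (8.25 ± 1.4) of H2-DMa (3.65 ± 2.31). In NdLN, Cd74 and H2-Ab1 were each clear of the next, while Ctss (98.8 ± 42.7) overlapped H2-Ab1 (76.4 ± 23.8). Ciita and H2-Oa were among the lowest 3 genes in each group, at 0.40 to 2.61 CPM per kb.

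Libraries of 1 group varied together across these genes. For H2-Aa, H2-Ab1 and H2-Eb1 alike, Tumor 5 was the highest and Tumor 2 the lowest Tumor library, and TdLN 3 and NdLN 3 were the highest of their groups. After subtraction of group means, log2 CPM over the 15 libraries correlated at Pearson r = 0.784 to 0.982 in the 15 pairs among H2-Aa, H2-Ab1, H2-Eb1, H2-DMa, H2-DMb1 and Cd74. Ciita correlated with these 6 genes at 0.707 to 0.842, Ctss at 0.53 to 0.691, H2-Oa at 0.288 to 0.54 and Ifi30 at 0.267 to 0.496. Cd74 thus varied with the chain genes within groups, while its differences between groups did not pass the test. These are descriptions over libraries that share preparation and depth.

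Class II promoters are known for an X box, bound by RFX proteins, and a Y box, bound by NF-Y, at a fixed distance, which together recruit CIITA. RefSeq's promoter table (GRCm38.p6) held 7 of the 10 genes. The letters GNAAC, found in X boxes, followed after 20 to 32 bases by ATTGG, the reverse of the Y box letters CCAAT, were searched on both strands of the 250 bases before each start. They were picked after the promoters had been read. The pair was present for 4 of the 7 genes and in 1.87% of all 32851 promoters in the table, and ATTGG alone in 33.8%. The sequences are shown for the pair that these 4 genes carry. All 4 rose in Tumor against TdLN, and so did H2-DMa and Ifi30, which lack the pair. H2-Oa was not called against NdLN. Whether the pair bears on these differences was not tested. The pair is also found before H2-Ob (chr17:34238808-34238862, plus strand), printed for comparison, which did not rise (-0.97 ± 0.91, adjusted p = 0.372) and fell against NdLN, and before H2-Eb2, which was not tested. The sequences read 5′ to 3′ on the gene's strand, with GNAAC and ATTGG in capitals, and lie at chr17:34287857-34287914 (H2-Aa, minus strand), chr17:34305766-34305822 (H2-Eb1), chr17:34153087-34153144 (H2-DMb1) and chr17:34092293-34092350 (H2-Oa, these 3 on the plus strand).
H2-Aa: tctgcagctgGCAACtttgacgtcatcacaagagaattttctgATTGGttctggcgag
H2-Eb1: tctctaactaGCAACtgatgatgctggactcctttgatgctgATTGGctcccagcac
H2-DMb1: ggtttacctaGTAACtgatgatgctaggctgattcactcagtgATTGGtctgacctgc
H2-Oa: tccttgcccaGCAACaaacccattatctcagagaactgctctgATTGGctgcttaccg
H2-Ob: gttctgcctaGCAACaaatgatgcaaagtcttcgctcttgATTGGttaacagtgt
The spacing between the capitals was 28, 27, 28 and 28 bases, and 25 bases before H2-Ob. Neither H2-DMa, which has 2 windows in the table, nor Ifi30 or Ctss held the pair. Ctss held the letters GAAA, 2 bases of any kind and GAAA again, a pattern of interferon response elements that 2.98% of all promoters hold on either strand. It lies at chr3:95526745-95526785 on the plus strand, with the match in capitals.
Ctss: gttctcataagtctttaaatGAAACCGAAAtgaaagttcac
A match of letters describes the sequence and does not show binding.

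Among the other genes of the class II pathway more fell than rose. Of 20 listed genes (further chains, proteases, membrane ligases and promoter factors) 18 were tested, and in Tumor against TdLN 2 rose, 10 fell and 6 did not pass, with a median log2 fold change of -0.72. The share called is near that of all tested genes (62%), of which 31.9% were higher and 30.1% lower. Ctsl, a protease that cuts the invariant chain in thymic epithelium, fell to 365 ± 67.1 CPM in Tumor, against 1388 ± 168 CPM in TdLN and 1729 ± 138 CPM in NdLN libraries (SD, n = 5 each; log2 fold change against TdLN -1.93 ± 0.13, adjusted p = 6.4e-09). Ctsh, an aminopeptidase of lysosomes, fell by 1.88 ± 0.15 on the log2 scale (adjusted p = 4.41e-08). Ctsb, a broad lysosomal protease, rose to between 1486 and 1704 CPM in Tumor, against 870 to 1025 CPM in TdLN libraries (0.74 ± 0.07, adjusted p = 5.95e-07). Of the promoter factors, Rfx5 (-1.4 ± 0.21, adjusted p = 4.19e-05) and Rfxank (-0.80 ± 0.12, adjusted p = 4.15e-05), subunits of RFX, fell, and so did Creb1 (-0.79 ± 0.14, adjusted p = 0.000148) and the NF-Y subunit Nfya (-0.67 ± 0.22, adjusted p = 0.0161). The NF-Y subunit Nfyc rose (0.39 ± 0.15, adjusted p = 0.0348), and the RFX subunit Rfxap (0.46 ± 0.60, adjusted p = 0.524) and Nfyb (0.10 ± 0.13, adjusted p = 0.556) did not pass. Against NdLN 1 rose and 11 fell (median -0.73), where 66.5% of all genes were called. Between the nodes, where 3.49% of all genes were called, 1 fell, March1, a ligase that removes class II molecules from the surface (-3.91 ± 0.97, adjusted p = 0.037). It had 8 counts in all TdLN and 129 in all NdLN libraries, and it lost the call whichever of the 10 libraries was left out.

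Most of the listed genes that act on Ciita were lower in Tumor libraries as well. Of 12 listed genes 0 rose, 11 fell and 1 did not pass against TdLN (median log2 fold change -1.24), where 30.1% of all tested genes were lower. Against NdLN 9 fell and 3 did not pass (median -1.06), where 32.5% of all genes were lower. Jak1, a kinase of the interferon receptors, fell to 273 ± 45.8 CPM, against 2417 ± 174 CPM in TdLN libraries (-3.15 ± 0.16, adjusted p = 3.82e-10). Ifngr1, the ligand-binding receptor chain, fell to 78.2 ± 8.52 CPM, against 271 ± 34 CPM in TdLN libraries (-1.79 ± 0.10, adjusted p = 1.31e-09). The other receptor chain gene, Ifngr2, fell less (-0.80 ± 0.17, adjusted p = 0.000832), and Jak2 did not pass (-0.57 ± 0.47, adjusted p = 0.308). Socs3 (-2.17 ± 0.22), a feedback inhibitor of cytokine signals, and Irf2 (-1.29 ± 0.14), a partner of IRF1, fell too. Between the nodes Socs3 was the 1 gene called (-0.97 ± 0.22, adjusted p = 0.0242), where 3.49% of all genes were called. No gene of this list was called without TdLN 1, TdLN 2, TdLN 3, NdLN 2, NdLN 3 or NdLN 5, which are 6 of 10 fits with a library left out.

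Of 9 costimulatory and inhibitory ligand genes 6 were tested. Against TdLN 2 rose, Cd40, a receptor for helper T cells (76.3 ± 17.2 CPM in Tumor, 34.1 ± 4.32 CPM in TdLN libraries, adjusted p = 6.72e-05), and Tnfsf9, the 4-1BB ligand (2.47 ± 0.48, adjusted p = 0.000414), and Cd274, which encodes the inhibitory ligand PD-L1, fell (-2.76 ± 0.28, adjusted p = 7.3e-07). These 3 calls among 6 genes stand beside 62% of all tested genes called. Cd80 and Cd86, which encode the main ligands of CD28, were near 0, at 0.33 ± 0.19 and 0.18 ± 0.19 CPM in Tumor, 0.12 ± 0.14 and 0.33 ± 0.35 CPM in TdLN and 0.15 ± 0.20 and 0.40 ± 0.28 CPM in NdLN libraries. Against NdLN 2 rose and 2 fell, among them Icosl (-0.66 ± 0.28, adjusted p = 0.048), beside 66.5% of all genes called. Between the nodes Icosl, the ligand of ICOS, was the 1 called, lower in TdLN (-1.10 ± 0.28, adjusted p = 0.0425), where 3.49% of all genes were called. With a library left out, a gene of this list was called in 1 of 10 fits, that without TdLN 5, and none was called with no filter or the stricter filter.

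**Figure D4:**
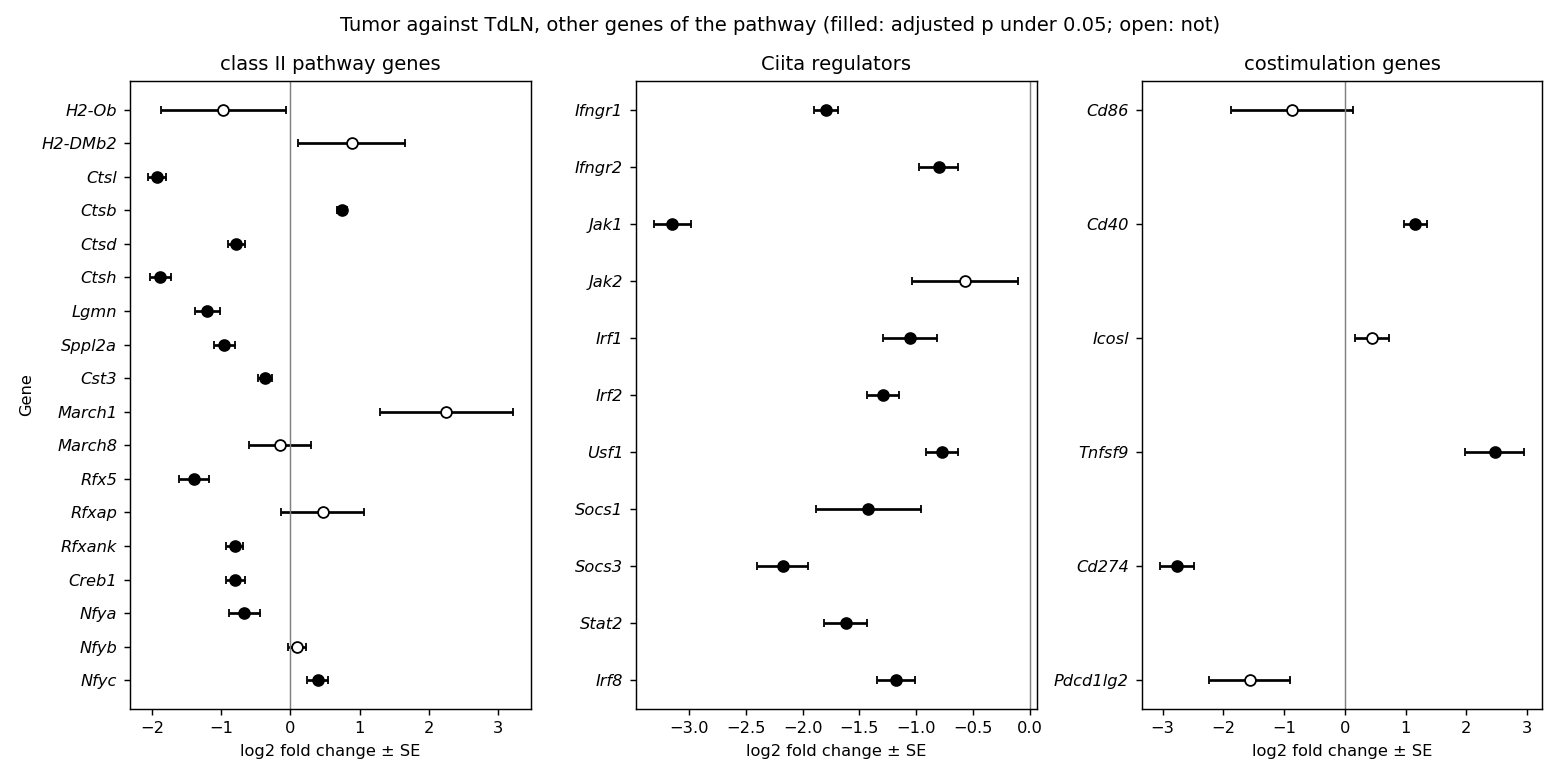
Log2 fold change of Tumor against TdLN with its standard error for tested genes of the other pathway lists (1 gene of the middle list is not drawn), filled where the adjusted p was under 0.05. The filled points drawn among the genes that act on Ciita all lie left of 0, and so do 10 of the 12 filled points among the other class II pathway genes.

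Class II genes are abundant in leukocytes, so markers of such cells are set beside these values. In Tumor libraries 14 macrophage and monocyte genes summed to 279, 134, 164, 120 and 163 CPM, against 16.4 to 51.1 CPM in TdLN and 10.3 to 37.1 CPM in NdLN libraries, and 13 of the 14 rose against TdLN and 12 against NdLN, where 31.9% and 34% of all tested genes were higher. The most abundant, Lyz2, averaged 53.6 CPM in Tumor, 10.1 CPM in TdLN and 12.8 CPM in NdLN, and Cd68, a lysosomal marker of macrophages, 15.2, 1.22 and 0.71 CPM. Tumor 1 had the highest macrophage sum, and Tumor 5 had the highest class II chain levels at the median sum. Of the 14 genes 2 were highest in Tumor 5, Csf1r, the receptor of a macrophage growth factor (17.04 CPM, against 2.81 to 10.7 CPM in the other Tumor libraries), and C1qa, a complement gene (19.2 CPM). None of the 14 was at 0 in a whole group. The part of macrophage RNA in the rise of the class II genes was not tested.

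Of 10 B cell genes 8 were tested, of which 1 rose and 4 fell against TdLN and 0 rose and 5 fell against NdLN. Of all tested genes 31.9% were higher and 30.1% lower against TdLN, and 34% and 32.5% against NdLN. The 10 genes summed to 4.61 to 8.52 CPM in Tumor, against 16.7 to 34.2 CPM in TdLN and 19.0 to 55.8 CPM in NdLN libraries, and Pax5 and Cd22, which define the lineage, were at 0 in every Tumor library. In TdLN most of the sum was Cd79b (0.65 CPM in Tumor, 18.9 CPM in TdLN and 19.6 CPM in NdLN), a chain of the B cell receptor complex, while Cd79a, its partner chain, rose against TdLN (4.49 CPM in Tumor, 1.54 CPM in TdLN, adjusted p = 0.0222) and was not called against NdLN (adjusted p = 0.951). The 10 dendritic cell genes summed to 20.8 to 28.3 CPM in Tumor, 50.0 to 117 CPM in TdLN and 102 to 121 CPM in NdLN, mostly from Zbtb46 (13.1, 73.9 and 82.2 CPM in Tumor, TdLN and NdLN), while Flt3, a defining receptor of these cells, had 1 count in all Tumor, 0 in all TdLN and 45 in all NdLN libraries. Of the 8 dendritic cell genes tested, 3 rose against TdLN, Cd209a (adjusted p = 0.00708; at 0 in all TdLN libraries), Clec10a (adjusted p = 0.00314) and Batf3 (adjusted p = 0.004), and 2 fell. Against NdLN 2 rose and 3 fell. These counts stand beside the same shares of all tested genes as the B cell counts. Pan-leukocyte genes (10) summed to 64.7 to 101 CPM in Tumor, 85.7 to 119 CPM in TdLN and 65.8 to 169 CPM in NdLN. This sum joined genes that differed in opposite directions. Against TdLN 3 rose, Laptm5, Ptpn6 and Cd48, and 2 fell, Cd53 and Coro1a. Against NdLN 1 rose and 3 fell, beside the same shares of all tested genes. Cd53 averaged 4.53 CPM in Tumor, 43.8 CPM in TdLN and 34.7 CPM in NdLN, and Laptm5 10.1, 3.29 and 8.49 CPM. Among NdLN libraries, numbers 3, 4 and 5 had both the highest pan-leukocyte sums (169, 130 and 154 CPM) and the highest H2-Ab1, H2-Aa and H2-Eb1, and Ptprc, the gene of CD45, was at 8.77, 6.51 and 8.80 CPM there, against 0.38 and 2.67 CPM in NdLN 1 and 2. Their part in the node values was not tested. Of other cells, 9 fibroblast and reticular genes summed to 1342 to 10250 CPM in Tumor, 115 to 354 CPM in TdLN and 242 to 549 CPM in NdLN, highest in Tumor 5, while 9 T cell genes summed to 19.6 to 30.1 CPM in Tumor, 58.4 to 73.6 CPM in TdLN and 50.6 to 69.1 CPM in NdLN. In the nodes this T cell sum was mostly Lck (40.7 CPM in TdLN, 25.6 CPM in NdLN) and Cd5 (19.8 and 25.8 CPM). Cd3e, Cd3d and Cd3g averaged 0.58, 0.46 and 0.31 CPM in TdLN and 1.99, 1.77 and 2.09 CPM in NdLN. The 9 blood endothelial genes summed to 447 to 1052 CPM in Tumor, 2939 to 7349 CPM in TdLN and 2955 to 6031 CPM in NdLN.

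**Figure D5:**
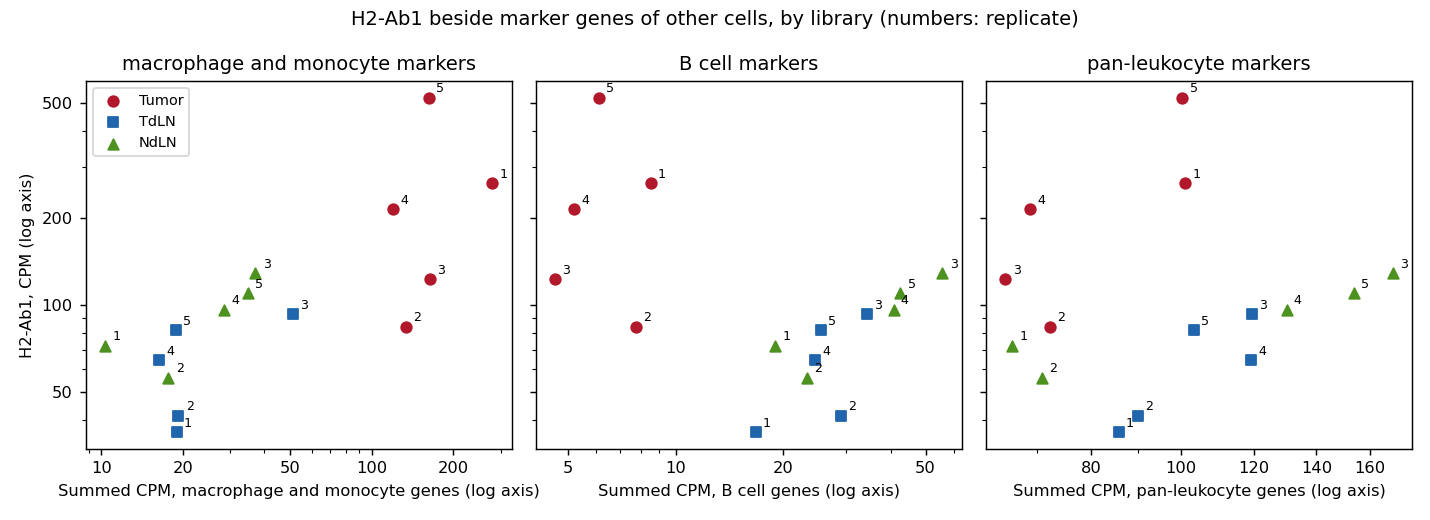
H2-Ab1 level (CPM, log axis) against the summed CPM (log axis) of macrophage and monocyte, B cell and pan-leukocyte genes, each point a library numbered by replicate. Tumor libraries stand at the highest macrophage sums, 120 to 279 CPM, and at the lowest B cell sums, 4.61 to 8.52 CPM.

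Genes whose libraries deviated from their group means most like the mean log2 CPM of H2-Aa, H2-Ab1, H2-Eb1 and Cd74 were ranked by Pearson r over the 15 libraries, among the 11132 genes whose log2 CPM averaged 1 or more. The 8 most alike were Tnfsf10, H2-Q4, Casp12, Kcna6, C2, Ccrl2, Il15ra and Apol10b, at r = 0.919, 0.892, 0.889, 0.884, 0.883, 0.883, 0.88 and 0.877, with Spearman rho of 0.793 to 0.893. None is a listed leukocyte marker. Their group means did not follow the class II chains. Tnfsf10 averaged 14.6 CPM in Tumor, 239 CPM in TdLN and 242 CPM in NdLN libraries, and C2, a complement component, 230 CPM in Tumor, 705 CPM in TdLN and 604 CPM in NdLN. With the highest of 11132 values picked from 15 libraries, this ranking is a description only.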

How the data were processed

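RNA was sequenced from 15 libraries of sorted lymphatic endothelial cells. Per the labels' protocols, 1 ng of total RNA was amplified with a low-input kit, 200 pg of cDNA entered a transposase-based preparation, and pools of 10 libraries gave single reads of 50 bases. Which libraries shared a pool is not recorded, and pool effects were not examined. The authors deposited raw counts per gene, not normalized. The submitters' processing notes name GRCm38, featureCounts 1.4.6, STAR 2.4 and CASAVA 1.8.2. For the annotation release and strand setting: not given in the sources used here.

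IDs were matched to GENCODE M21 (21628 of 21839). edgeR 4.0.16 in R 4.3.3 (TMM, filterByExpr, robust glmQLFit, glmQLFTest) was fitted to all 15 libraries, and genes were called at a Benjamini-Hochberg adjusted p under 0.05 over 13887 genes. The standard error (SE) derives from the quasi-likelihood F. Log2 CPM used a prior count of 2. Length is that of the principal transcript (longest for Ifi30). Alternatives used DESeq2 1.42.0 and limma 3.58.1. The edgeR step was tested on simulated data. Figures were drawn with matplotlib 3.10.9. Counting error only is covered by depth, since amplified reads are not independent molecules.

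The genes and lists were chosen with earlier results of these data known. All 10 genes are named, as are up to 4 genes per other list with the smallest adjusted p and the 8 genes most alike. Beside these, H2-Ob, H2-DMb2, H2-Eb2, Rfx5, Rfxap, Creb1, Nfya, Nfyb, Nfyc, Ifngr2, Jak2, Cd80, Cd86 and marker genes were named after their values were seen. H2-Ea and Slc45a2 were not analysed here. For 1 gene of the list acting on Ciita, values are not reported here, and it is included in that list's counts only.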

Additional observations from a re-analysis of the deposited data

Results flagged for a closer look

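In 30 groups of 5 libraries (10 genes in 3 groups), the library farthest from its neighbour was set against Dixon's critical value of 0.71 for the gap over the range. Chance passes about 1 in 20 groups, and 2 passed. Ciita in Tumor 5 stood at 43.9 CPM, with a gap over range of 0.852. Ifi30 in Tumor 1 stood at 58.2 CPM, with a gap over range of 0.806. Tumor 1 also had the highest macrophage and monocyte sum of the Tumor libraries, 279 CPM.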

How the results depend on the processing

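The counts of class II genes called kept within 1.5 times under every alternative, at 9 to 10 for Tumor against TdLN and 8 to 9 for Tumor against NdLN with a library left out, and 0 in TdLN against NdLN. Of 264 single values under other settings 262 kept direction and side of the threshold. H2-Oa passed in Tumor against NdLN with voom (1.01, adjusted p = 0.0383), and H2-Ab1 did not with glmTreat. With a library left out 289 of 300 did so. Those that turned were H2-DMa (-0.35 to 0.16), H2-DMb1 (-0.10 to 0.24) and Cd74 (-0.20 to 0.10) in TdLN against NdLN, none past the threshold, and Cd74 passed in both Tumor comparisons without Tumor 5. Against a fold of 2, glmTreat called 3525, 4189 and 0 genes in Tumor against TdLN, Tumor against NdLN and TdLN against NdLN, in place of 8614, 9230 and 484. It called 3 and 3 pathway genes and 5 and 5 genes that act on Ciita in the Tumor comparisons, 2 costimulation genes in Tumor against NdLN, and 0 of each list between the nodes. In TdLN against NdLN DESeq2 called 988 genes and 2 pathway genes, voom 817 genes (328 higher and 489 lower, in place of 256 and 228), the fit of only these groups 698 genes (270 higher and 428 lower) and 2 genes that act on Ciita, and no filter and the stricter filter 0 pathway and 0 costimulation genes. Leaving out 1 library gave 225 to 564 genes there, 0 to 0 pathway, 0 to 1 regulator and 0 to 1 costimulation genes, and 3 to 5 costimulation genes in Tumor against TdLN. The lowest counts came without TdLN 1 (225), NdLN 2 (245) and TdLN 2 (258), and 277, 307, 315 and 319 without NdLN 4, NdLN 3, TdLN 3 and NdLN 5. The labels do not say what equal numbers share, and the libraries were not treated as paired. Only 4 of 15 pairs of equal number, over the 3 comparisons, correlated above 0.1 (-0.21 to 0.25). In 3 of the 15 pairs the first library correlated best with its own number in the other group. With the replicate block 8381, 8995 and 400 genes were called, and 9, 8 and 0 class II genes. Scaling moved the median log2 fold change of all genes by less than 0.1. H2-Oa rests on 9 to 143 counts in a library.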

Other observations

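The ratio of H2-Ab1 to H2-Aa per kb of transcript was close in 4 NdLN libraries, at 2.65, 2.53, 2.68 and 2.69 in NdLN 2 to 5, while NdLN 1 stood at 5.28. The 5 TdLN libraries gave 4.86, 5.12, 2.68, 4.03 and 3.83. NdLN 1 also had the lowest H2-Aa of its group, and Cd74 over H2-Aa was 42.2 there, against 22.1 to 23.0 in the other NdLN libraries. The ratio of H2-DMb1 to H2-Ab1 was 0.18 to 0.24 in Tumor libraries, against 0.12 to 0.22 in TdLN and 0.08 to 0.13 in NdLN, so the Tumor libraries were clear of NdLN and not of TdLN. H2-Aa over H2-Eb1 was 2.12 to 3.25 in Tumor libraries, against 1.17 to 1.67 in TdLN and 1.69 to 2.26 in NdLN, with no overlap between TdLN and either other group. These ratios were read after the values were seen and were not tested.

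H2-DMb2, the near copy of H2-DMb1, did not follow it, at 1.85 ± 1.93 CPM in Tumor, 1.00 ± 0.87 CPM in TdLN and 2.49 ± 1.25 CPM in NdLN libraries (SD, n = 5 each). H2-Eb2, a further beta chain gene that was too low to be tested, had 52 counts in all Tumor, 8 in all TdLN and 19 in all NdLN libraries.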
